A study of Mus musculus with 6 samples.

Results

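Transcripts of 38 genes of cell division and its spindle checkpoint were examined in whole testes of 3 inbred mouse strains. The genes were chosen by name for their function, with earlier results of these data known. Platform annotation gave 37 of them at least 1 probe set of their own, of 18193 genes in all. Each was represented by its brightest probe set over 6 arrays, and its other probe sets served as a check. Of the 37, 35 passed the filter on dim probe sets, Ccnb3 and Fbxo43 did not, and Ccnb1 was not analysed here. The mice were 8 weeks old and belonged to the strains C57BL/6, AKR/N and MRL/MpJ+/+ (MRL/MpJ below), with 2 mice and 2 arrays a strain and no treatment named in the labels. The design compares testes of these strains. Each inbred strain stands for 1 genotype, and C57BL/6 serves as the common comparison strain below.

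Cell division is driven by cyclin-dependent kinase 1, which needs a cyclin partner and is held off by the kinases Wee1 and Pkmyt1 and released by Cdc25 phosphatases. The spindle checkpoint delays separation of chromosomes until every kinetochore is held by microtubules. It acts by blocking Cdc20, an activator of the anaphase-promoting complex, which otherwise destroys securin and cyclin B and frees separase. In the testis these genes serve the mitoses of spermatogonia and both meiotic divisions of spermatocytes, and several (Ccna1, Aurkc, Fbxo43, Ccnb3) are known for their germ cell roles. In a whole testis, fewer dividing cells and less transcript per cell cannot be told apart.

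Values are probe set intensities in array units, and every array has a trimmed mean of 125.001. Array medians were 28.0 to 30.7 units. Over tested probe sets, which are not independent of each other, Pearson's r was 0.980 to 0.985 within a strain and 0.960 to 0.974 across strains. Differences are of log2(intensity + 16), a scale that understates changes of dim genes, given with their standard error (SE). A gene was called when limma's adjusted p, over 29692 tested probe sets, lay under 0.05. The small number of arrays limits how precise any value is. The p-values rest on the spread between these arrays, pooled over the strains. For each probe set that spread is drawn toward a trend with intensity over all tested probe sets. The trend has more weight than the probe set's own arrays (7.58 prior against 3 residual degrees of freedom).

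Differences between the strains were small for most of these genes. On the log2(intensity + 16) scale, no member differed by 2-fold on its brightest probe set in any comparison. Few genes did: 2.57% of all genes in MRL/MpJ against C57BL/6, 2.54% in AKR/N against C57BL/6 and 1.41% in MRL/MpJ against AKR/N. Of the 35 tested members, 27 were called in no comparison. The share of all genes called in none of the 3 was not counted, so this is not read as a trait of the members. The other 8 members were Ccna1, Cdca8, Nuf2, Incenp, Cdc25c, Wee1, Ttk and Cenpf. MRL/MpJ against C57BL/6 had 3 members called, all lower in MRL/MpJ (Ccna1, Cdca8 and Nuf2). That is 8.57% of the members. Of all 14461 genes tested, 12.2% were called in this comparison (6.10% higher and 6.12% lower), as were 10.0% of all probe sets. AKR/N against C57BL/6 also had 3 called, Incenp higher and Ccna1 and Cdca8 lower. Here 11.9% of genes were called (6.39% higher and 5.50% lower) and 9.97% of probe sets. MRL/MpJ against AKR/N had 5 called, Ttk and Cenpf higher and Cdc25c, Nuf2 and Wee1 lower in MRL/MpJ. This is 14.3% of the members, against 8.75% of genes (3.68% higher and 5.07% lower) and 6.91% of probe sets. The shares among members lay near these background shares. With each array centred on its median, 7.37% of genes were higher and 4.82% lower in MRL/MpJ against C57BL/6, and 7.31% and 4.18% in AKR/N against C57BL/6. The comparisons with C57BL/6 share its 2 arrays, and each strain enters 2 of the 3 comparisons, so their calls are not independent. Of the 11 calls in all, 1 (Cdca8 in AKR/N against C57BL/6) held when the variance was not modelled on intensity, and 2 (both of Cdca8) held with any 1 array left out.

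The median difference over the 35 members was -0.02 for MRL/MpJ against C57BL/6, -0.03 for AKR/N against C57BL/6 and 0.06 for MRL/MpJ against AKR/N, where the median over all genes was 0.010, 0.0054 and 0.0068. The median size of the difference, sign aside, was 0.15, 0.11 and 0.13 among members and 0.19, 0.18 and 0.17 among all genes. The arrays of the strains did not overlap for 16 of 35 members (45.7%) in MRL/MpJ against C57BL/6, where 55.6% of all genes did not. They did not overlap for 14 of 35 in AKR/N against C57BL/6, against 54.7% of genes, and for 21 of 35 in MRL/MpJ against AKR/N, against 54.6%. A missed threshold does not show equal expression, so intervals were read instead. For all members not called (32, 32 and 30 in the 3 comparisons), the 95% interval of the difference lay within 1 log2 unit of 0, which is 2-fold. For 25, 24 and 25 of them it lay within 0.5. With a pseudocount of 1 in place of 16 the interval of Cdc25b, the dimmest tested member, crossed the 2-fold limit in each comparison, and that of Mad1l1 did so in MRL/MpJ against C57BL/6.

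**Figure D1:**
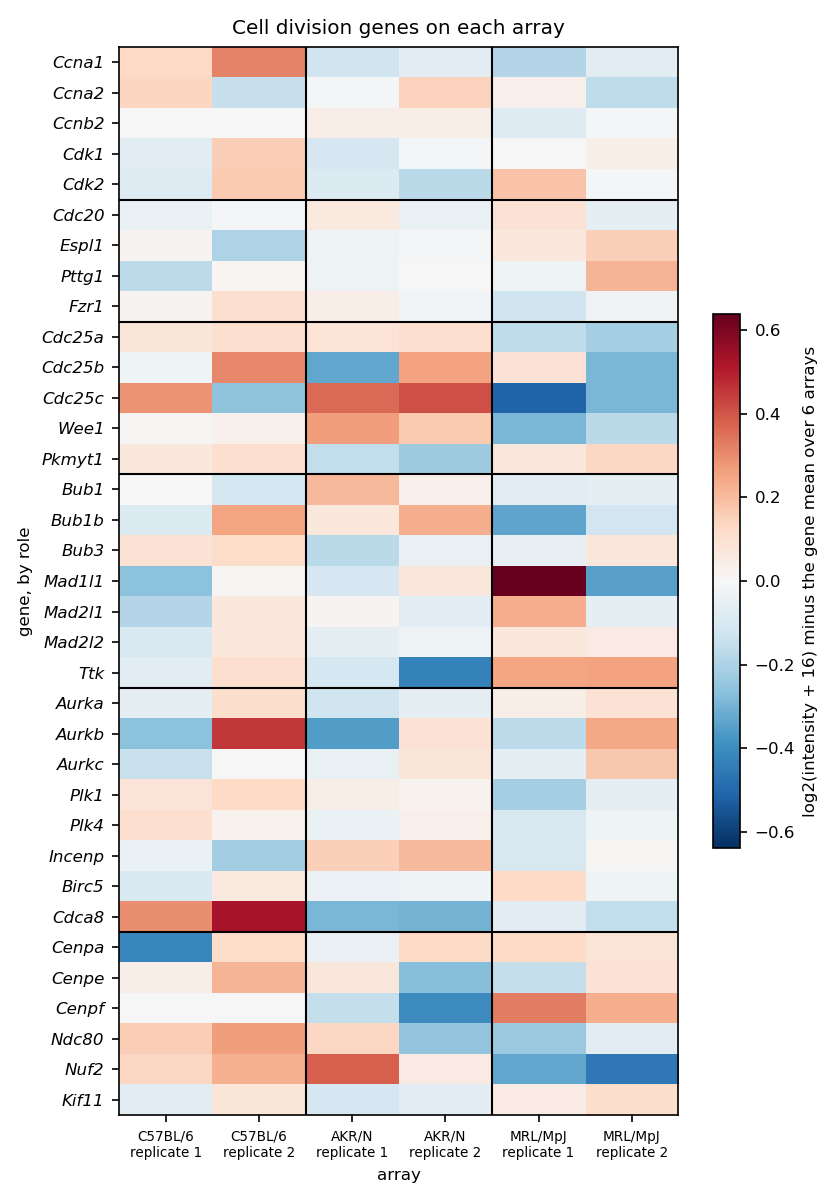
Tested members (rows, grouped by role with black lines) on each of the 6 arrays (columns, 2 per strain). Colour is log2(intensity + 16) minus the mean of that gene over the 6 arrays, red above and blue below it. Most rows are pale, with stronger contrast between strains for Cdca8, Cdc25c, Nuf2 and Cenpf and a single high array for Mad1l1.

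**Figure D2:**
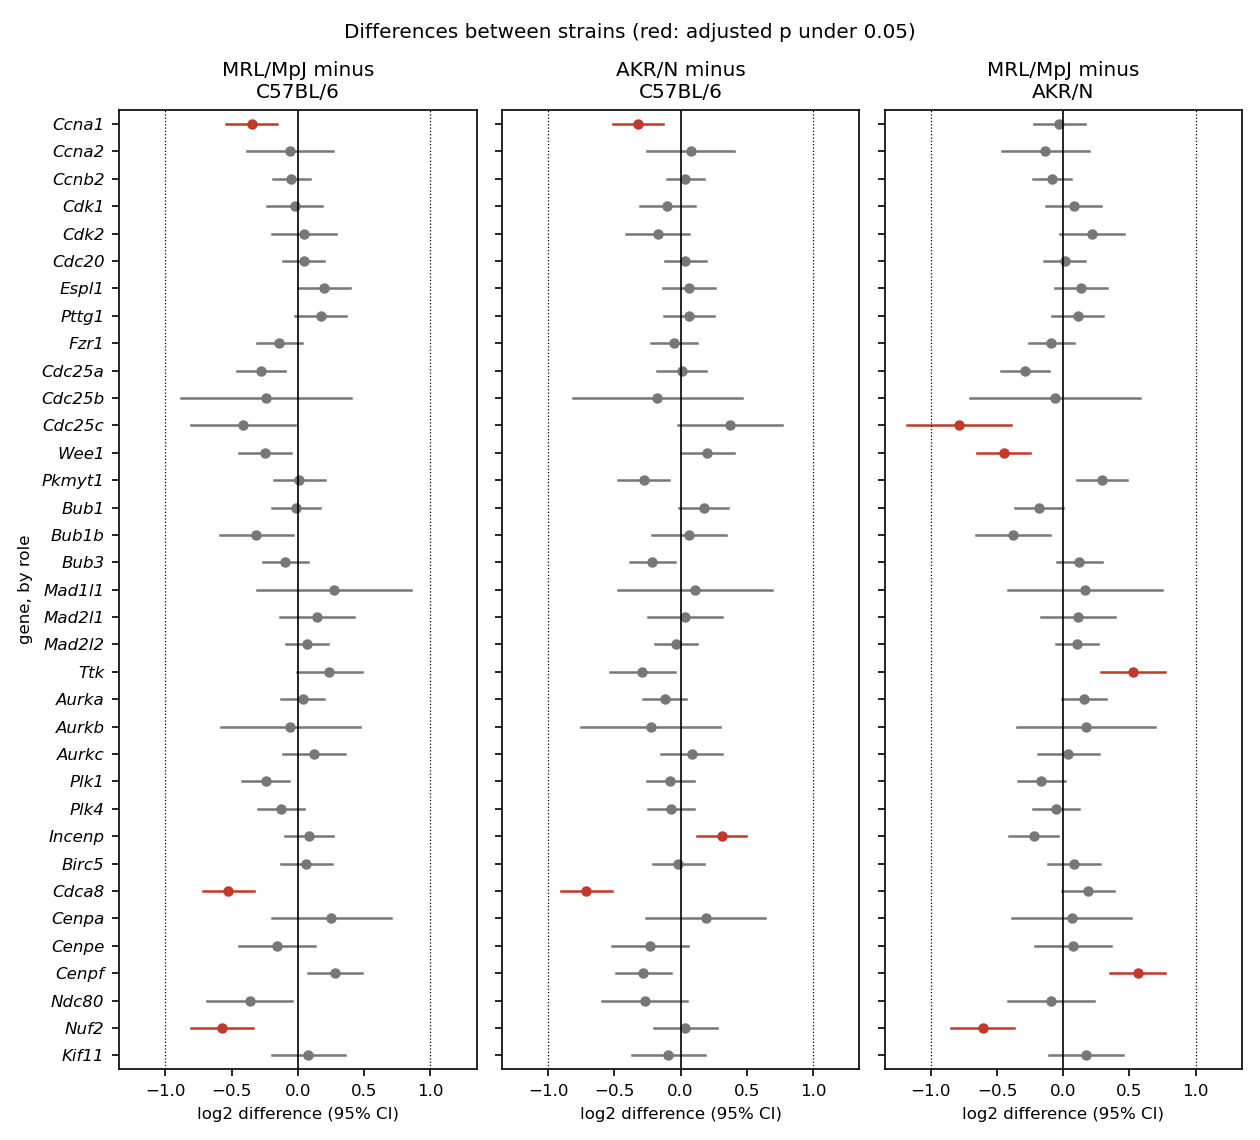
Difference of log2(intensity + 16) for each of the 35 tested members (rows) in the 3 comparisons (panels), with 95% intervals from limma as bars. Red marks an adjusted p under 0.05 and dotted lines mark 2-fold; 3, 3 and 5 members are red, and no point lies beyond the dotted lines.

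Promoters of many cell cycle genes are known to hold CCAAT boxes, bound by the factor NF-Y, and cell cycle homology regions (CHR), bound by repressor and activator complexes that time expression to late cell cycle phases. RefSeq (build GRCm38.p6) gave promoter windows of 300 bases, 250 before the annotated start and 50 from it on, for 31 of the 38 members, Ccnb1 included, in 34 windows. The windows were searched for CCAAT and, for the CHR, for TTTGAA and TTTAAA, each on both strands, with overlapping matches counted. Of the 34 member windows, 24 (70.6%) held CCAAT, against 37.4% of all 32851 windows of that length, and 13 (38.2%) held at least 2, against 11.7%. A CHR match was found in 20 (58.8%), against 27.6%. Both were found in 16 (47.1%), against 10.7%. The median GC content was 58.7% in member windows and 52.7% in all. Matches are a description of letters and were not tested for function.

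The following 4 windows are shown for members the results turn on. Cdca8 had the smallest adjusted p of the members, Cenpf the smallest between MRL/MpJ and AKR/N, and Nuf2 was called in 2 comparisons. Cdk1, the central kinase, was called in none. Capitals mark the motif matches on either strand. All lie on the minus strand of GRCm38.p6 and are written 5′ to 3′ along the gene, at chr4:124936868-124937167 for Cdca8, chr1:189688037-189688336 for Cenpf, chr1:169531415-169531714 for Nuf2 and chr10:69352863-69353162 for Cdk1.
Cdca8: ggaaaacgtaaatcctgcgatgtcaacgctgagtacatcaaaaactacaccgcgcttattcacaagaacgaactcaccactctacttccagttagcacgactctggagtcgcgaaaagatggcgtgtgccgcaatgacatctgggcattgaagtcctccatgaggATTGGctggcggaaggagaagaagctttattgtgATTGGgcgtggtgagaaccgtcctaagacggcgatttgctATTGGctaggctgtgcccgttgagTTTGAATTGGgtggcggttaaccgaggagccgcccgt
Cenpf: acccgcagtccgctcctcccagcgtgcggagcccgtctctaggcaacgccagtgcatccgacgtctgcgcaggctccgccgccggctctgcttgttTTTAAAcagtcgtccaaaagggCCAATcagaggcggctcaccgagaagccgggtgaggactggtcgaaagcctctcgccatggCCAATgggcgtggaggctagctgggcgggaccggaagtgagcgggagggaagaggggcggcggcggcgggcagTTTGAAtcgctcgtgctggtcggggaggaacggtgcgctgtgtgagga
Nuf2: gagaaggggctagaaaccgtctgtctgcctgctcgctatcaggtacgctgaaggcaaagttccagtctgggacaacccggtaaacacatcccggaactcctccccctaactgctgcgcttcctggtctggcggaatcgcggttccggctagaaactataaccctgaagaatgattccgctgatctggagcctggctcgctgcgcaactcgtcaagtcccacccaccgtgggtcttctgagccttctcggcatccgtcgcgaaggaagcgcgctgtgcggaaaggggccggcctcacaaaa
Cdk1: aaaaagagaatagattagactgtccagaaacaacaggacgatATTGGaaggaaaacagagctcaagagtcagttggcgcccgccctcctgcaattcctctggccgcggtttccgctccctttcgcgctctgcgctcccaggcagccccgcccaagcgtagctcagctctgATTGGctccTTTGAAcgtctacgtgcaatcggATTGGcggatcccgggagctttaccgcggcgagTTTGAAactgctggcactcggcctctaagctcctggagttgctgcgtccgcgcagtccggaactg

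Cdca8 held 4 CCAAT matches and 1 CHR match, which shares a base with the last of them. Cenpf held 2 of each and Cdk1 held 3 CCAAT and 2 CHR matches. Nuf2, also called, held neither. Genes with both motifs stood among the members called (Cdca8, Cenpf, Ttk) and among those called in no comparison (Cdk1, Ccnb2, Cdc20, Aurka, Plk1). The called members Incenp, Cdc25c and Wee1 had no window. All windows come from 1 reference build, so they hold no sequence differences between the strains. A relation of motifs to calls was not tested.

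**Figure D3:**
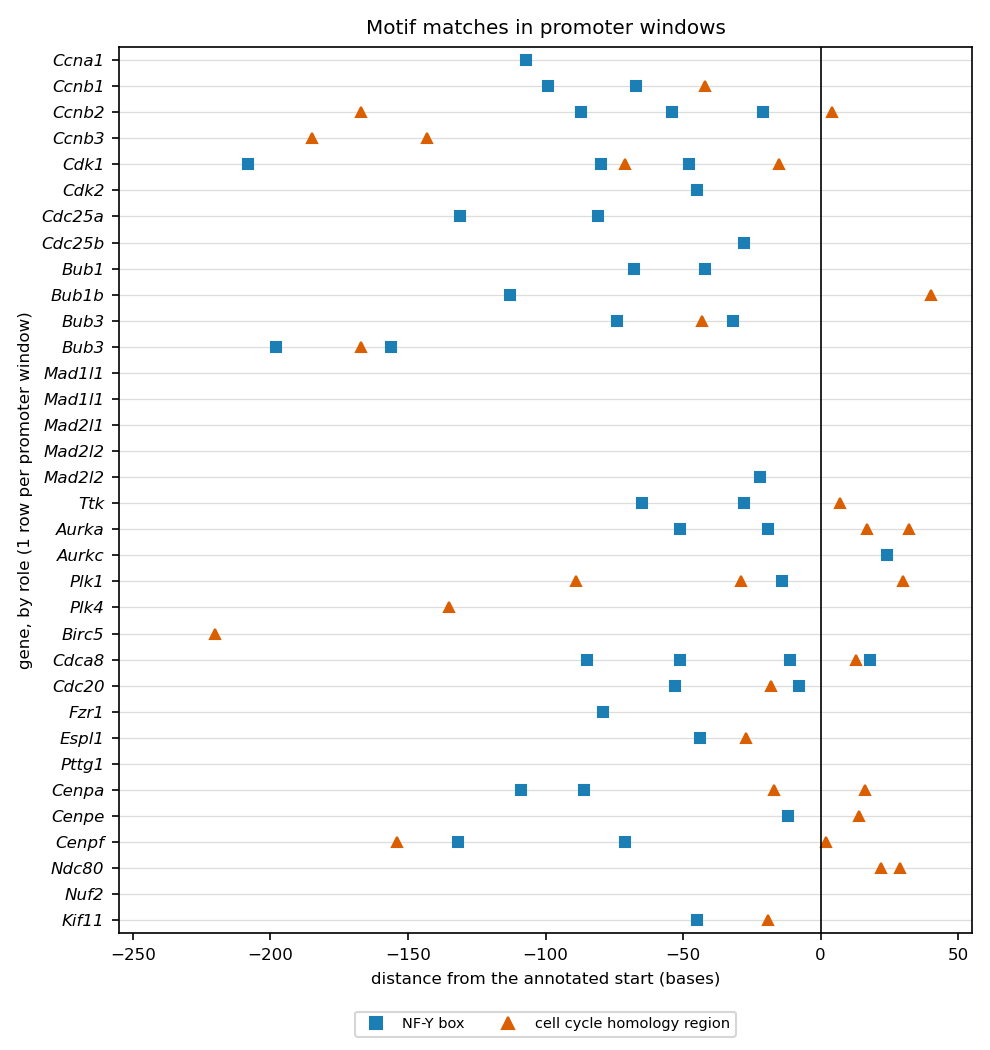
Matches to the NF-Y box (blue squares) and to the cell cycle homology region (orange triangles) by distance in bases from the annotated start, for 34 promoter windows of 31 members (rows). Most NF-Y boxes lie in the last part of the window before the start, and Nuf2, Pttg1, Mad1l1, Mad2l1 and 1 of the windows of Mad2l2 hold neither motif.

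Among cyclins and their kinases, 5 of 7 members were tested and only Ccna1 was called, in both comparisons with C57BL/6. Of all genes, 12.2% were called there in MRL/MpJ and 11.9% in AKR/N. Ccna1, the A-type cyclin of the male germ line that spermatocytes need for the first meiotic division, stood at 764 and 873 units in C57BL/6, 637 and 664 in AKR/N and 611 and 665 in MRL/MpJ. Both C57BL/6 arrays were above all 4 others, and AKR/N and MRL/MpJ overlapped. Ccna1 was lower than in C57BL/6 by -0.35 in MRL/MpJ (SE 0.0866, adjusted p = 0.0282) and by -0.32 in AKR/N (adjusted p = 0.0416). The first call was lost without C57BL/6 replicate 2 (-0.25, adjusted p = 0.159), MRL/MpJ replicate 1 (0.176) or MRL/MpJ replicate 2 (0.0624). The second was lost without C57BL/6 replicate 2, AKR/N replicate 1 or AKR/N replicate 2 (adjusted p = 0.233, 0.209 and 0.133), after median centring (0.061) and with only the arrays compared (0.0508). Without the filter on dim probe sets both were lost (0.0514 and 0.0712). Ccna1 has 1 probe set, so no other could check it. Ccna1 also stands in the list of spermatocyte markers described further down.

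The tested cyclin partners of general mitosis, Ccnb2 and Ccna2, were not called, and Ccnb1 was not analysed. Ccnb2, a B-type cyclin, ranged only from 1490.4 to 1629 units over the 6 arrays. Its intervals were -0.19 to 0.09 in MRL/MpJ and -0.10 to 0.18 in AKR/N against C57BL/6. Cdk1 ranged from 445 to 536 units. Cdk2, the kinase of S phase, had overlapping arrays in MRL/MpJ and C57BL/6, and its differences lay between -0.17 and 0.22. Ccna2, the somatic A-type cyclin, ranged from 85.5 to 109.6 units, and its dimmer probe set from 46.9 to 52.6. Ccnb3, a cyclin of early meiosis, was dim, at 2.97 to 24.4 units, and was not tested.

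Of the 5 enzymes that switch Cdk1 on and off, Cdc25c and Wee1 were called lower in MRL/MpJ than in AKR/N, as were 5.07% of all genes. None was called against C57BL/6 on its brightest probe set. The median difference over the 5 was -0.25 in MRL/MpJ and 0.0073 in AKR/N against C57BL/6, and -0.29 in MRL/MpJ against AKR/N. Cdc25c, a phosphatase that activates Cdk1 at entry into division, stood at 60.9 and 73.8 units in MRL/MpJ and at 125 and 130.1 in AKR/N. The C57BL/6 arrays, at 118 and 75.8, lay between these. The difference between MRL/MpJ and AKR/N was -0.79 (SE 0.179, adjusted p = 0.0251), the largest of any member. The second probe set of Cdc25c gave 75.02 and 66.6 units in MRL/MpJ, 131 and 116 in AKR/N and 74.6 and 73.6 in C57BL/6. It was called too, at -0.68 for MRL/MpJ against AKR/N (adjusted p = 0.0136), and also at 0.63 for AKR/N against C57BL/6 (adjusted p = 0.015), where the brightest probe set had 0.37 (adjusted p = 0.238). The call of the brightest was lost without any 1 of the 4 arrays compared (adjusted p = 0.0666 to 0.155) and without the filter on dim probe sets (0.0665). As the mean of both probe sets it remained called.

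Wee1, the kinase that holds Cdk1 inactive, stood at 273 and 297 units in MRL/MpJ, 339 and 344 in C57BL/6 and 409 and 382 in AKR/N. The 3 strains did not overlap. The difference between MRL/MpJ and AKR/N was -0.45 (SE 0.0899, adjusted p = 0.0137). The second, dimmer probe set of Wee1 ranged from 111 to 192 units with no order by strain, and gave 0.03 (adjusted p = 0.967). As the mean of both, Wee1 differed by -0.21 (adjusted p = 0.416). Its call was also lost without AKR/N replicate 1, AKR/N replicate 2 or MRL/MpJ replicate 1 (adjusted p = 0.113, 0.062 and 0.109).

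Cdc25a, a phosphatase that acts from the start of S phase, gave different answers on its probe sets. On the brightest, MRL/MpJ lay at 339 and 327 units, below C57BL/6 at 403 and 412 and AKR/N at 407 and 413. This was -0.28 against C57BL/6 (adjusted p = 0.0575) and -0.29 against AKR/N (adjusted p = 0.0661). On the second, C57BL/6 stood alone at 422 and 437 units, above AKR/N at 293 and 286 and MRL/MpJ at 264 and 263. That probe set was called at -0.67 in MRL/MpJ (SE 0.0856, adjusted p = 0.000685) and at -0.54 in AKR/N (adjusted p = 0.00263) against C57BL/6. Both placed MRL/MpJ below C57BL/6 and disagreed on AKR/N.

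The remaining switches were called on no probe set. Pkmyt1, a membrane-bound relative of Wee1, stood at 304 and 289 units in AKR/N against 358 to 374 on the other 4 arrays. Its differences were -0.28 in AKR/N against C57BL/6 and 0.29 in MRL/MpJ against AKR/N (adjusted p = 0.0695 and 0.0735), and its dimmer probe set pointed the other way in both (0.33 and -0.17). Cdc25b, at 12.6 to 28.4 units, was too dim for a narrow interval.

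**Figure D4:**
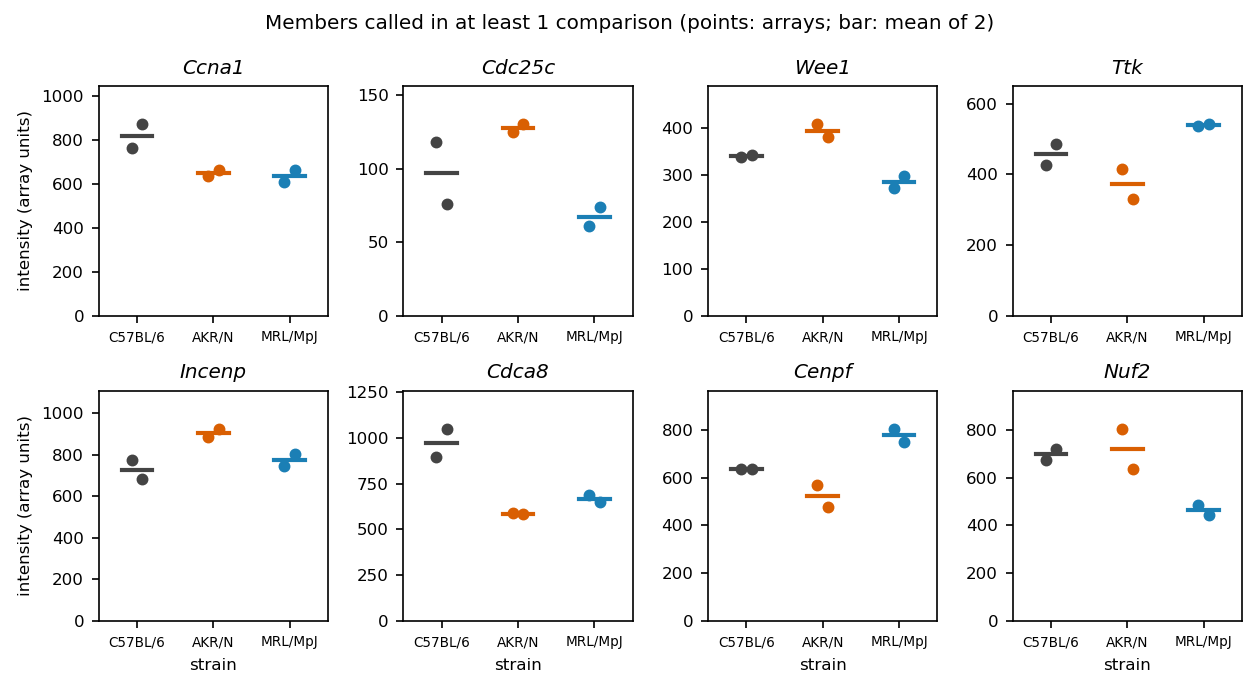
Intensity in array units (vertical axes, starting at 0) of the 8 members called in at least 1 comparison, by strain. Points are single arrays and bars the mean of 2. C57BL/6 is highest for Ccna1 and Cdca8, AKR/N for Incenp, Wee1 and Cdc25c, and MRL/MpJ is lowest for Nuf2, Wee1 and Cdc25c and highest for Ttk and Cenpf.

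Of the 7 spindle checkpoint members, all tested, 1 was called, in MRL/MpJ against AKR/N, where 8.75% of all genes were. Ttk, the kinase that starts the checkpoint at unattached kinetochores, stood at 538 and 542 units in MRL/MpJ, 428 and 486 in C57BL/6 and 415 and 330.0 in AKR/N. The 3 strains did not overlap, and MRL/MpJ was highest. Its difference between MRL/MpJ and AKR/N was 0.53 (SE 0.111, adjusted p = 0.0177). It was not called without AKR/N replicate 2 (0.37, adjusted p = 0.154), MRL/MpJ replicate 1 (0.0906) or MRL/MpJ replicate 2 (0.101). A second probe set, at 2.14 to 30.6 units, gave 0.34 (adjusted p = 0.764), and the mean of both 0.43 (adjusted p = 0.225).

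Bub1, a checkpoint kinase that also guards cohesion at centromeres, stood on its brightest probe set at 787 and 725 units in C57BL/6, 908 and 804 in AKR/N and 747 and 751 in MRL/MpJ, with no call. On a dim second probe set AKR/N lay at 9.87 and 23.5 units, below C57BL/6 at 50.1 and 42.7 and MRL/MpJ at 44.9 and 36.7. It was called lower in AKR/N than in C57BL/6 (-0.96, SE 0.24, adjusted p = 0.0296), where the brightest gave 0.17. Bub1b, which holds back Cdc20, lay at 261 and 306 units in MRL/MpJ, 351 and 395 in AKR/N and 314 and 401 in C57BL/6. Its differences of -0.38 and -0.31 in MRL/MpJ against AKR/N and C57BL/6 were not called (adjusted p = 0.111 and 0.156), and its second probe set gave -0.08 and 0.14.

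Mad2l1, the checkpoint protein that binds Cdc20, ranged from 196 to 267 units and overlapped in all comparisons. Bub3, the partner of Bub1 and Bub1b, ranged from 824 to 1010.4 units and was lowest on average in AKR/N (-0.22 against C57BL/6, adjusted p = 0.114). Mad2l2, a relative of Mad2l1 best known from DNA repair, ranged from 1419.9 to 1594 units. Mad1l1, which recruits Mad2l1 to kinetochores, lay between 57.1 and 81.9 units on 5 arrays and at 129 on MRL/MpJ replicate 1.

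None of the mitotic kinases was called. The 3 calls in their group, Cdca8 in 2 comparisons and Incenp in 1, fell on subunits of the chromosomal passenger complex, which places the kinase Aurkb at centromeres and later at the spindle midzone. All 3 were against C57BL/6, where 12.2% of all genes were called in MRL/MpJ and 11.9% in AKR/N. Cdca8, or borealin, a targeting subunit, stood at 894 and 1049 units in C57BL/6, 690.0 and 647 in MRL/MpJ and 587 and 583 in AKR/N. C57BL/6 lay above the 4 other arrays. Cdca8 was lower in AKR/N by -0.71 (SE 0.0879, adjusted p = 0.000544) and in MRL/MpJ by -0.52 (adjusted p = 0.00373), and both calls held with any 1 array left out. The second probe set gave -0.36 in AKR/N (adjusted p = 0.0277) and -0.16 in MRL/MpJ (adjusted p = 0.309). The third, at 264 to 350.4 units, gave -0.08 and 0.23, without a call. As the mean of the 3 probe sets the difference in MRL/MpJ was -0.15 (adjusted p = 0.26).

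Incenp, the scaffold of the same complex, was higher in AKR/N, at 888 and 924 units, than in C57BL/6, at 774 and 683. MRL/MpJ lay at 744 and 803 and overlapped C57BL/6. The difference of AKR/N from C57BL/6 was 0.31 (SE 0.0829, adjusted p = 0.0396). Other probe sets gave 0.14 (adjusted p = 0.44) and -0.21 (adjusted p = 0.443), and the mean over probe sets 0.079 (adjusted p = 0.603). The call was also lost without AKR/N replicate 1, AKR/N replicate 2 or C57BL/6 replicate 2 (adjusted p = 0.128, 0.208 and 0.218) and without the filter on dim probe sets (0.0685). Birc5, or survivin, the third targeting subunit, ranged from 569.9 to 668 units with differences of -0.02 to 0.08. On their brightest probe sets, Cdca8 and Incenp differed in opposite directions in AKR/N against C57BL/6, with Birc5 between them. For Incenp this rests on that probe set alone.

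Of the kinases, Aurka, which matures the spindle poles, ranged from 1388 to 1645 units. Aurkb, the catalytic subunit of the complex, ranged from 78.6 to 149 units, with the strains overlapping. Aurkc, its germ cell counterpart, ranged from 327 to 410.4. Plk1, a kinase with roles from entry to exit of division, lay at 535 and 598 units in MRL/MpJ against 661 and 682 in C57BL/6 (-0.24, adjusted p = 0.0877). Plk4, which starts centriole duplication, ranged from 562 to 650.1 units.

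None of the regulators of the anaphase-promoting complex or of separase was called. Cdc20, the activator held by the checkpoint, ranged from 2395 to 2662 units, with intervals of -0.11 to 0.20 in MRL/MpJ and -0.12 to 0.19 in AKR/N against C57BL/6. A second probe set of Cdc20 ranged from 1344 to 1582 units, and another, at 94.0 to 244 units, gave 0.72 in AKR/N against C57BL/6 (adjusted p = 0.0729). Fzr1, the activator of late division and G1, ranged from 657 to 778 units. Espl1, or separase, which cuts cohesin, ranged from 523 to 672. Pttg1, or securin, its inhibitor, ranged from 3040.4 to 3976 units, with MRL/MpJ replicate 2 highest. Fbxo43, an inhibitor of the complex in meiosis, lay at 0.925 to 12.6 units and was not tested.

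At the centromere and kinetochore, 2 of 6 members were called. Nuf2, a subunit of the Ndc80 complex that grips microtubules, stood at 484 and 443 units in MRL/MpJ, 674 and 720.2 in C57BL/6 and 804 and 636 in AKR/N. Both MRL/MpJ arrays were below the 4 others, and the AKR/N and C57BL/6 arrays overlapped. The difference of MRL/MpJ was -0.57 from C57BL/6 (SE 0.107, adjusted p = 0.00705) and -0.61 from AKR/N (adjusted p = 0.00727). The first call was lost without C57BL/6 replicate 2 (adjusted p = 0.0567) or MRL/MpJ replicate 2 (0.0612). The second was lost without AKR/N replicate 1 (-0.45, adjusted p = 0.0621) or MRL/MpJ replicate 2 (0.0663). Nuf2 has 1 probe set, so no second one could check it. Its partner Ndc80 was dimmer, at 107 and 122 units in MRL/MpJ, 145 and 158 in C57BL/6 and 143 and 106 in AKR/N. Ndc80 differed by -0.36 between MRL/MpJ and C57BL/6, without a call (adjusted p = 0.155).

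Cenpf, a large kinetochore protein of G2 and mitosis, was highest in MRL/MpJ, at 803 and 751 units, intermediate in C57BL/6, at 637 and 636, and lowest in AKR/N, at 570.3 and 476. The strains did not overlap, and the difference between MRL/MpJ and AKR/N was 0.56 (SE 0.0927, adjusted p = 0.0052). Neither strain differed from C57BL/6 at the threshold (0.28 and -0.28, adjusted p = 0.0858 and 0.0891). Its 2 other probe sets gave 0.27 and 0.60 (adjusted p = 0.345 and 0.397), and the mean of all 0.48 (adjusted p = 0.12). The call was lost without AKR/N replicate 2 (adjusted p = 0.0565) or MRL/MpJ replicate 1 (0.051).

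The other centromere members were not called. Cenpe, a motor that carries chromosomes to the spindle equator, ranged from 261 to 373 units, and Kif11, which pushes the spindle poles apart, from 94.5 to 113. Dimmer probe sets of Kif11 gave -0.57 and -0.44 in AKR/N against C57BL/6 (adjusted p = 0.0523 and 0.189), where the brightest gave -0.09. A dimmer probe set of Cenpe gave -0.57 in MRL/MpJ and -0.51 in AKR/N against C57BL/6, without a call (adjusted p = 0.137 and 0.187). Cenpa, the histone variant that marks centromeres, was dim, at 31.9 to 53.9 units, with differences of 0.06 to 0.25.

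**Figure D5:**
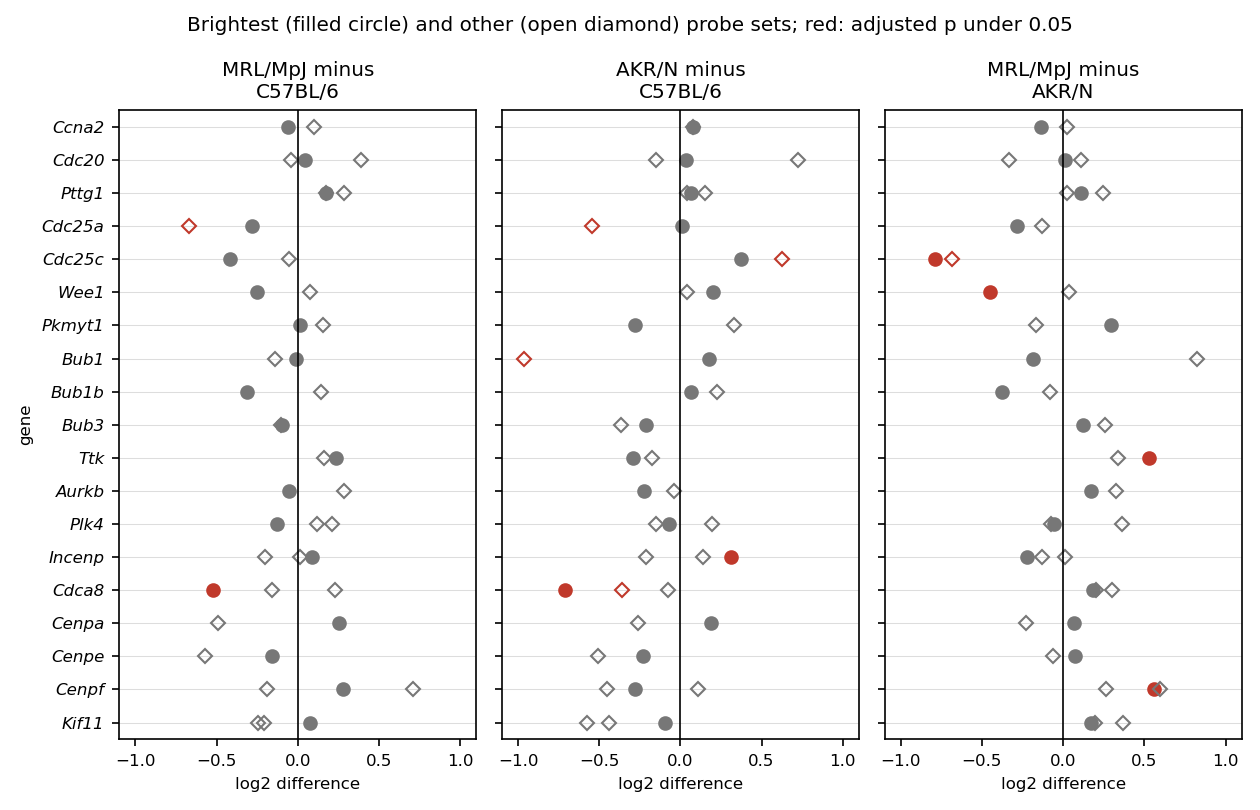
Difference of log2(intensity + 16) for members with more than 1 tested probe set (rows) in the 3 comparisons (panels). Filled circles are the brightest probe sets, open diamonds the others, and red marks an adjusted p under 0.05. Circles and diamonds lie apart for Cdc25a and Bub1 in AKR/N against C57BL/6, for Cdca8 in both comparisons with C57BL/6 and for Wee1 between MRL/MpJ and AKR/N.

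In all, members had 26 other tested probe sets. One of these was called lower in MRL/MpJ against C57BL/6 (Cdc25a). In AKR/N against C57BL/6, 1 was called higher (Cdc25c) and 3 lower (Cdc25a, Cdca8 and Bub1). Between MRL/MpJ and AKR/N, 1 was called lower (Cdc25c). Only Cdc25c, between MRL/MpJ and AKR/N, and Cdca8, between AKR/N and C57BL/6, were therefore called on more than 1 probe set in a comparison.

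Of 128 further genes of the same pathways, 118 were tested. In MRL/MpJ against C57BL/6, 7 were higher and 5 lower (10.2%, against 12.2% of all genes). In AKR/N against C57BL/6, 7 were higher and 12 lower (16.1%, against 11.9%), and in MRL/MpJ against AKR/N 11 were higher and 5 lower (13.6%, against 8.75%). Their medians were 0.06, -0.03 and 0.11.

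Among 15 subunits and partners of the anaphase-promoting complex, Anapc13, a small structural subunit, stood at 506 and 582 units in AKR/N against 859 to 1060.0 on the other arrays (-0.88 against C57BL/6, adjusted p = 0.000232). Ube2c, the ubiquitin-conjugating enzyme that works with the complex, was highest in AKR/N, at 389 and 379 units. It stood at 279.6 and 285 in C57BL/6 and 232 and 231 in MRL/MpJ (-0.69 for MRL/MpJ against AKR/N, adjusted p = 0.00095). In this list 1 gene was lower in MRL/MpJ and 1 was higher and 1 lower in AKR/N, each against C57BL/6, while 2 were higher and 1 lower between MRL/MpJ and AKR/N.

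Of 22 spindle motors and assembly factors, Kif20b, a motor of late division, was the largest difference. It stood at 135 and 131 units in MRL/MpJ against 289 to 335 on the 4 other arrays (-1.19 against C57BL/6, adjusted p = 2.61e-05). The list had 1 higher and 1 lower in MRL/MpJ and 1 higher and 3 lower in AKR/N against C57BL/6, and 1 higher and 2 lower between MRL/MpJ and AKR/N. Of 24 other kinetochore and centromere genes, 2 were higher and 1 lower in MRL/MpJ against C57BL/6. Cenpm, a centromere protein, stood at 121 and 119 units in MRL/MpJ against 39.9 to 68.2 on the other arrays (0.78, adjusted p = 0.0247). Mis12, which joins the inner to the outer kinetochore, was higher by 0.61 (adjusted p = 0.0398). Ska1, which helps kinetochores track microtubules, was lower (-0.52, adjusted p = 0.025). In AKR/N 1 was lower, and between MRL/MpJ and AKR/N 2 were higher and 1 lower.

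Of 22 genes of the G1 and S phases, 2 were higher in MRL/MpJ and 4 higher and 2 lower in AKR/N, each against C57BL/6. Between MRL/MpJ and AKR/N 1 was higher and 1 lower. Rbl2, a pocket protein that silences cell cycle genes in resting cells, was low in C57BL/6, at 146 and 105 units, against 218 to 288 elsewhere (1.11 in AKR/N and 0.88 in MRL/MpJ, adjusted p = 0.000832 and 0.00337). Of 18 licensing and proliferation genes, 1 was higher and 1 lower in MRL/MpJ against C57BL/6, 2 were lower in AKR/N against C57BL/6, and 2 were higher in MRL/MpJ than in AKR/N. Mki67, a general marker of dividing cells, stood at 160 and 142 units in AKR/N, 208 and 220 in C57BL/6 and 207 and 218 in MRL/MpJ (-0.46 in AKR/N against C57BL/6, adjusted p = 0.0191). For Pcna, the replication clamp, both AKR/N and MRL/MpJ were lower than C57BL/6 (-0.47 and -0.28, adjusted p = 0.00082 and 0.0184). Rrm1, of the same list, was higher in MRL/MpJ than in C57BL/6 (0.36, adjusted p = 0.0245). In AKR/N it just missed the threshold (0.30, adjusted p = 0.05002). The median over this list was 0.07 in AKR/N against C57BL/6. Of 17 condensin and cohesion genes, 1 was higher and 1 lower in MRL/MpJ and 1 higher and 3 lower in AKR/N against C57BL/6, and 3 were higher between MRL/MpJ and AKR/N. Smc4, a core condensin subunit, stood at 2133 and 1853 units in AKR/N against 2600.0 to 2782 elsewhere (-0.40 against C57BL/6, adjusted p = 0.00682). Ncapg, of the same list, was the gene higher in AKR/N than in C57BL/6 (0.53, adjusted p = 0.0129).

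Markers of the germ cells that divide differed between strains beside these results. Of 17 spermatocyte markers, the member Ccna1 among them, 8 were higher and none lower in MRL/MpJ than in AKR/N. Of all genes, 3.68% were higher and 5.07% lower there. In AKR/N against C57BL/6 2 were higher and 5 lower, and in MRL/MpJ against C57BL/6 4 higher and 3 lower. The summed spermatocyte signal was 26112 to 26523 units in AKR/N, 28579 to 29126 in C57BL/6 and 27882 to 29023 in MRL/MpJ. Of 15 spermatogonial markers, 1 was called higher in each comparison. Their sums were 2517 to 2852, 2664 to 2807 and 3001 to 3009 units in AKR/N, C57BL/6 and MRL/MpJ. These sums rest largely on the bright genes Dazl and Id4 (means of 961 and 738 units). The median difference over the list had the other sign between MRL/MpJ and AKR/N (-0.11). It was 0.02 in MRL/MpJ and 0.06 in AKR/N against C57BL/6. Round spermatid markers, of cells past both divisions, were lower in MRL/MpJ for 7 of 16 genes against C57BL/6 and 8 of 16 against AKR/N, with sums of 22299.8 to 22845 units in MRL/MpJ and 25784 to 27364 in the other strains. The part of these differences in the members' values was not tested.

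Of 14 tested markers of elongating spermatids, 3 were lower in MRL/MpJ against each of the other strains, and 1 was higher and 1 lower in AKR/N against C57BL/6. Of 14 Sertoli cell markers, 4 were higher in AKR/N and 1 in MRL/MpJ against C57BL/6, and 3 were lower in MRL/MpJ than in AKR/N. Of 6 Leydig cell markers, 4 were higher in each of AKR/N and MRL/MpJ than in C57BL/6, and 1 was higher and 1 lower in MRL/MpJ than in AKR/N. Macrophage markers had 1 of 10 called lower in MRL/MpJ against each other strain. Of 10 lymphocyte markers 6 were too dim to be tested. Cd3d, of the T cell receptor complex, lay at 113 and 173 units in AKR/N and at 1.17 to 2.31 elsewhere, while Cd3e stood at 10.1 to 35.1 and Cd3g at 1.31 to 17.6 units on all arrays; Cd3e and Cd3g are named here after their values were seen.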

How the data were processed

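Testis RNA of 3 strains, 2 arrays each, was measured on a GeneChip after Trizol extraction and one-cycle cDNA synthesis, per the labels' protocols. The authors deposited linear intensity values per probe set; the software that summarised probes is not given in the sources used here, nor are presence calls. From the values, all arrays share 1 mean once 2% of values is trimmed from either tail, a scaling that was kept.

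Of 45101 probe sets, 64 controls were left out. Platform annotation gave 1 symbol for 34945, several for 932 and none for 9160; only single symbols were used. Probe sets above the 40th percentile on at least 2 of 6 arrays were tested. Strain means of log2(intensity + 16) came from 1 linear model of the 6 arrays (limma 3.58.1 under R 4.3.3, using eBayes with an intensity trend; 3 residual and 7.58 prior degrees of freedom), with Benjamini-Hochberg adjustment over all 29692 probe sets in each comparison. The calculation was tested on simulated data.

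The members and lists were chosen with earlier results of these data known. All members are named, with values on every array for those called, or called on another probe set; further genes were named by smallest adjusted p, up to 4 called genes a list, of which the text gives some. Nothing in the labels says that equal replicate numbers mark shared litters or days. Alternatives were other scalings, filters and pseudocounts, no variance trend, fewer arrays, a replicate block and means over probe sets.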

Additional observations from a re-analysis of the deposited data

How the results depend on the processing

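The members called numbered 3, 3 and 5 in MRL/MpJ against C57BL/6, AKR/N against C57BL/6 and MRL/MpJ against AKR/N. Without the variance trend they numbered 0, 1 and 0, where 4, 4 and 7 had an unadjusted p under 0.05, and calls over all probe sets numbered 1212, 1138 and 421, against 2975, 2960 and 2052. Without the filter on dim probe sets 1 member was called in AKR/N against C57BL/6. As means of their probe sets, 5 were called there and 2 in MRL/MpJ against AKR/N. With 1 array left out, the counts were 1 to 3, 1 to 4 and 1 to 2, and over all probe sets 1483 to 2200, 1290 to 2544 and 694 to 900; the lone array of a strain is then assumed to vary like the others. Of the 11 calls of single members, 2, both of Cdca8, held with any 1 array left out. All 11 held under quantile normalization, either other pseudocount, the 60th percentile filter and the replicate block. Of the 11, 10 held after median centring, 10 with only the arrays compared, 7 without the filter, 6 as means of probe sets and 1 without the trend. Ccna1 and Nuf2 have 1 probe set each, so taking means left their differences unchanged. Of the other calls, those of Cdc25c and of Cdca8 in AKR/N against C57BL/6 held as means. No sign of the 11 reversed in any of these settings. Single dimmer probe sets pointed the other way for Wee1 (0.03 in MRL/MpJ against AKR/N) and Incenp (-0.21 in AKR/N against C57BL/6). So did 1 for Cdca8 (0.23 in MRL/MpJ against C57BL/6). The cause of these changes was not tested.

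The replicate block raised the count of members to 5 in MRL/MpJ against C57BL/6, where calls over all probe sets also rose, from 2975 to 3510. The differences between replicates 1 and 2 correlated between strains at 0.043 to 0.049, so the numbers were not taken to pair the arrays. The medians over members stayed between -0.097 and 0.084 in all settings. Members near the 40th percentile, such as Cdc25b, have little signal over background, which widens their intervals.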
